A study of Mus musculus with 6 samples.

Results

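The genes described here are 10 imprinted genes of the mouse brain, Magel2, Peg10, Nnat, Dlk1, Peg3, Ndn, Impact, Plagl1, Grb10 and Mest. The rule names them by symbol, and all 10 were found among the 19465 genes of the probe panel, each listed once in every section. Coronal brain sections came from untreated male C57BL/6J mice, fixed in formalin and embedded in paraffin, with 2 mice and so 2 sections at each of 3 ages. The groups were P21 (bred from purchased parents), adult (12 to 15 weeks) and aged (28 months, purchased), all wild type. Probes hybridised to transcripts were counted as unique molecular identifiers (UMIs) at spots that each cover several cells. Levels are in CPM, that is, UMIs of the gene for each 1000000 UMIs counted in the section or zone. The study's methods place the aged sections on a later slide version with changed probes, and the file headers name Space Ranger 3.1.1 for them and 2.0.0 for the others, although the labels name the first kit for all. Age and platform therefore cannot be told apart in aged vs. adult.

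Imprinted genes are transcribed mainly from the copy inherited from 1 parent, a state set by DNA methylation in the germ line. Many act on growth, feeding and social behaviour, and the hypothalamus is known for high levels of several of them. Probe counts do not separate the parental copies. Magel2 and Ndn (necdin) encode MAGE family proteins and lie in the region lost in Prader-Willi syndrome. Dlk1 encodes a transmembrane protein related to Notch ligands and Nnat (neuronatin) a small membrane protein of the endoplasmic reticulum. Peg3 and Plagl1 encode zinc finger proteins. Grb10 encodes an adaptor of insulin and IGF1 receptors, Impact a regulator of the translation kinase Gcn2, Peg10 a protein derived from a retrotransposon and Mest a member of the hydrolase family.

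In the GENCODE vM21 annotation of GRCm38, the build of the deposited counts, Ndn lies at chr7:62346569-62350262 and Magel2 at chr7:62377010-62381640, both on the plus strand, with 26747 bases between them. Peg3 lies at chr7:6703892-6730431, Peg10 at chr6:4747306-4760517, Mest at chr6:30723547-30748465, Nnat at chr2:157560078-157562522, Dlk1 at chr12:109452823-109463336, Plagl1 at chr10:13060504-13131694 and Grb10 at chr11:11930508-12038683. RefSeq promoter windows (GRCm38.p6) were matched for 8 of the 10 genes, and that of Ndn lies inside the GENCODE span. The 250 bases before the RefSeq start are shown for the neighbours Ndn and Magel2, which are set side by side in the aged hypothalamus, and for Dlk1, which had the steepest profile across regions. Capitals mark CpG, the site of DNA methylation.
Ndn, chr7:62348027-62348276, plus strand: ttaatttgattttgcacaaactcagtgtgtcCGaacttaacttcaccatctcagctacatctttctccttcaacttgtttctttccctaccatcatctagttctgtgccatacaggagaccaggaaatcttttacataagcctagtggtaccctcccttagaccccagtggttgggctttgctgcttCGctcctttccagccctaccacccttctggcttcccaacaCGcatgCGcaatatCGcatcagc
Magel2, chr7:62376729-62376978, plus strand: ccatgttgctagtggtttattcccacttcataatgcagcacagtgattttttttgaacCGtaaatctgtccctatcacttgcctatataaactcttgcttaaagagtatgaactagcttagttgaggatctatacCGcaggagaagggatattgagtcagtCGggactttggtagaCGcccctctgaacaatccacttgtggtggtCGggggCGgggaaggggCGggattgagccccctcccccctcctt
Dlk1, chr12:109452573-109452822, plus strand: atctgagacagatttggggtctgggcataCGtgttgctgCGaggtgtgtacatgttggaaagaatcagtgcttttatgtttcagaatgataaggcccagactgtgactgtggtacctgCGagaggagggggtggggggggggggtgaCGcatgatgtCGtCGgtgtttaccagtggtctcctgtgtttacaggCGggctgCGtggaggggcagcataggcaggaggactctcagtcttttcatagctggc
The Ndn window holds 5 CpG, the Magel2 window 7 and the Dlk1 window 8, and the median of all 32851 windows of this length is 6. The letters TATAAA, searched on both strands, occur in the Magel2 window alone of these 3 and in 12.4% of all windows. The letters GGGCGG, also on both strands, again occur in the Magel2 window alone and in 32.7% of all windows. Methylation was not measured here.

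Zones were rebuilt from the counts with the 10 genes and 52 other imprinted genes held out of the clustering. The 20336 spots fell into cortex (CTX, 4609 spots), hippocampus (HP, 1958), thalamus (TH, 3315), hypothalamus (HY, 3472), striatum (STR, 1132), fiber tracts (FT, 2036), ventricular system (VS, 233), reticular thalamus (RT, 280), medial habenula (MH, 215), meninges and large vessels (MV, 1030) and an unnamed zone led by Lypd1 and Ccn3 (2056). Median depth was 12074.5 to 25535 UMIs per spot. All 9 panel genes of the HY were raised in it, but HY spots were not 1 area. They lay mainly in 2 patches per section, with a further patch of 23 spots in adult replicate 1. In 1 of them, of 112 to 199 spots, at least 91.5% of spots belonged to a finer cluster led by Ccdc42 and Baiap3, and the other was mostly of further clusters, among them that led by Dlk1, Pmch and Hcrt. Pmch was lower in the Ccdc42 and Baiap3 patch of each section, as at 387 against 3891 CPM in P21 replicate 1. In aged replicate 1 it was at 1.95 against 7425 CPM. Whether that patch belongs to the hypothalamus was not tested, so HY is a zone named by its panel and its values may mix areas. The plane of section differed as well. Hcrt, the orexin gene, was at 335 and 363 CPM in the HY of the P21 sections and at 1110 and 2158 in adult replicate 2 and aged replicate 1, but at 0.347 in adult replicate 1 and 1.19 in aged replicate 2. The part of patches and plane in the results was not tested, and values within finer clusters are given beside them.

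All 10 genes were higher in the HY than in the mean of the other 5 regions tested (CTX, HP, TH, STR and FT). A joint edgeR fit of 36 sums, with section as a block and the 3 ages averaged, called a gene when its fold change exceeded 1.5 with an adjusted p below 0.05. It called 10 of 10 higher in the HY, where 8.43% of all 12722 genes were called higher, and the median log2 difference of the 10 was 1.70. The HY level was the highest of the 6 regions in 6 of 6 sections for 9 genes and in 5 of 6 for Mest. HY spots were 12.5% to 22.9% of a section and held 10.1% to 18.3% of its UMIs. They held 61.1% to 81.4% of the Dlk1 UMIs, 51.4% to 68.2% of the Magel2 UMIs and 14.4% to 27.4% of the Mest UMIs.

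**Figure D1:**
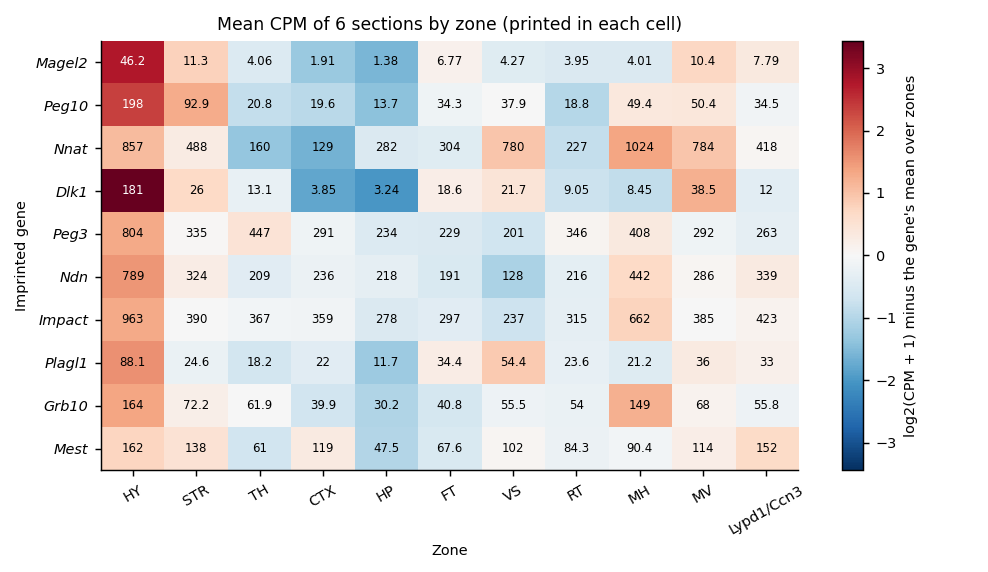
Mean CPM of the 6 sections for each imprinted gene (rows) in each zone (columns), printed in the cells, with colour for log2(CPM + 1) minus the gene's mean over zones, so that colours compare zones within a row. The HY is above each gene's own mean, with the widest range for Dlk1 (181 CPM in the HY, 3.24 in the HP) and Magel2 (46.2 and 1.38).

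Dlk1 had the widest contrast, 4.25 ± 0.06 (SE) on the log2 scale. Its mean level was 181 CPM in the HY, 38.5 in the MV, 26.0 in the STR, 21.7 in the VS, 18.6 in the FT and 13.1 in the TH. The lowest levels, 3.85 CPM in the CTX and 3.24 in the HP, lay closer together than their spread over sections of all ages (SD 2.15 and 2.73, n = 6). Their order changed between sections. The other membrane protein gene, Nnat, differed by 1.72 ± 0.07. Outside the 6 tested regions its means were 1024 CPM in the MH, 784 in the MV and 780 in the VS, against 857 in the HY. Each of these lay closer to the HY mean than the spread over sections of all ages (SD 244 to 365, n = 6). Within sections the HY was the highest of all zones for Nnat in 1 of 6. The MH of adult replicate 1 held only 2 spots. Nnat was lowest in the CTX, at 129 CPM.

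Of the MAGE family genes, Magel2 differed by 3.60 ± 0.07, from 46.2 CPM in the HY to 11.3 in the STR, 4.06 in the TH, 1.91 in the CTX and 1.38 in the HP. Ndn differed by 1.57 ± 0.04, from 789 CPM in the HY to 442 in the MH, 324 in the STR, 236 in the CTX, 218 in the HP and 209 in the TH. Both neighbours thus peaked in the HY. A Magel2 UMI was found in 1.62% to 6.40% of HP spots and 32.5% to 62.3% of HY spots, shares that also move with depth.

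The zinc finger gene Plagl1 differed by 1.95 ± 0.07 and was next highest in the VS, at 54.4 CPM against 88.1 in the HY. Peg3 differed by 1.34 ± 0.04 and was next highest in the TH, at 447 CPM against 804. Grb10 differed by 1.69 ± 0.05, with 164 CPM in the HY and 149 in the MH, closer than the spread over sections of all ages (SD 58.9 in the MH, n = 6). Within sections the HY was the highest of all zones in 5 of 6. Impact differed by 1.40 ± 0.03, with 963 CPM in the HY and 662 in the MH.

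Peg10 differed by 2.61 ± 0.08 in the HY and was also called higher in the STR, by 1.41 ± 0.11, where its mean was 92.9 CPM against 198 in the HY. Mest had the narrowest HY contrast, 0.95 ± 0.05, and was also called higher in the STR (0.73) and CTX (0.59). Its means of 162 CPM in the HY, 152 in the unnamed zone and 138 in the STR lay closer together than the spread over sections of all ages (SD 44.5 in the HY, n = 6). Within sections the HY was the highest of the 6 regions in 5 of 6, and the highest of all zones in 4 of 6. In the STR Magel2, Peg10, Nnat, Dlk1 and Mest were called higher, 5 of 10 against 6.54% of all genes. In the HP 7 of 10 were called lower (9.95% of all genes), in the CTX 4 lower (11.2%) and Mest higher (8.17%), in the TH 4 lower (10.5%), and in the FT Peg3 and Ndn lower (10.7%). For each of these regions the mean of the others holds the HY, so the lower calls partly restate the high HY levels. Contrasts without the HY were not run.

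Spatial patterning was also scored without zones. Moran's I, a deposited score of how alike neighbouring spots are, was 0.581 to 0.739 for Nnat, which ranked between 13 and 42 among the genes of a section. Dlk1 scored 0.344 to 0.674, with ranks 16 to 237. Plagl1 (0.130 to 0.295) and Mest (0.132 to 0.336) had the lowest upper values of the 10.

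**Figure D2:**
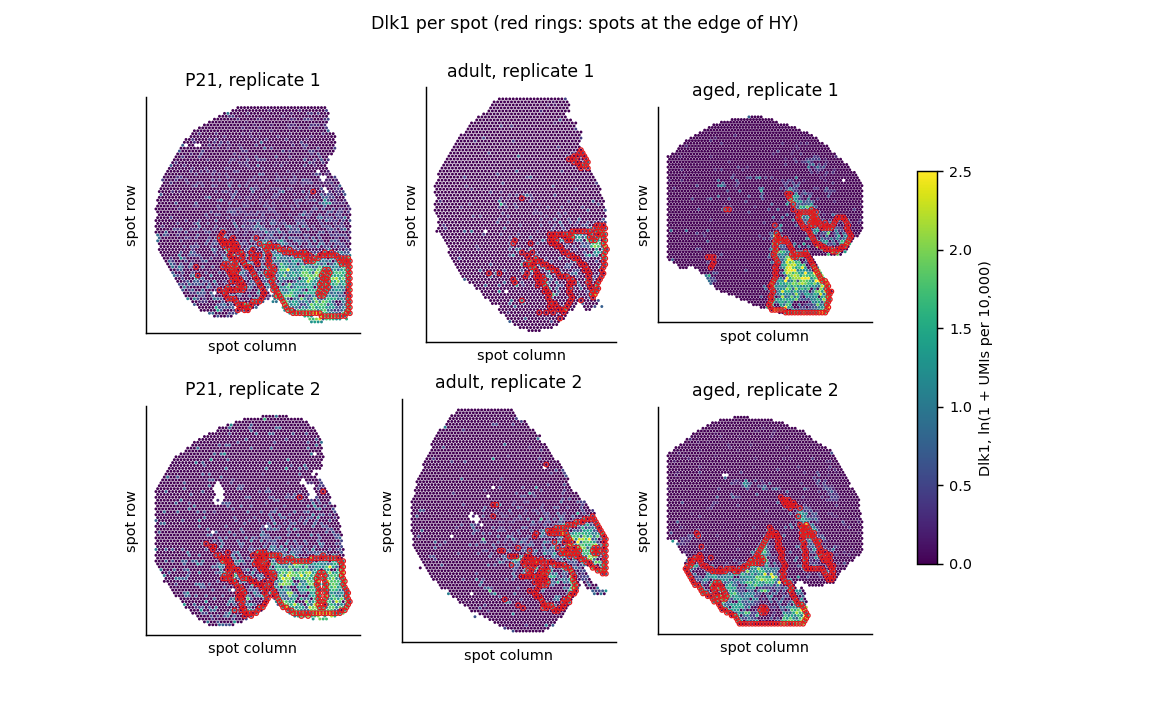
Dlk1 in each spot of the 6 sections, as the natural log of 1 plus the scaled share of the spot's UMIs (colour, capped at 2.5), drawn at spot row and column, with red rings for spots at the edge of the HY. Dlk1 is high in 1 HY patch of each section (261 and 312 CPM in the P21 sections) and dimmer in the separate patch (62.1 and 74.6).

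Within the HY the levels of Dlk1 and Ndn were set side by side by patch. Dlk1 in the patch with the Dlk1, Pmch and Hcrt cluster was at 261 and 312 CPM in P21, 92.9 and 240 in adult and 299 and 148 in aged sections. In the Ccdc42 and Baiap3 patch it was at 62.1 and 74.6, 46.0 and 92.7, and 113 and 76.8 CPM in the same order, lower than its partner patch in 6 of 6 sections. Ndn had no such order. In the first patch it was at 677 and 660 CPM in P21, 415 and 492 in adult and 1533 and 1139.5 in aged sections, and in the other at 445 and 532, 482 and 527, and 1211 and 1227. The first patch was thus higher in both P21 sections and aged replicate 1 and lower in the rest. The patches were seen on the maps before they were compared, so these values carry no test.

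Nnat also formed a pattern inside the hippocampus. In CA3 the P21 sections held 894 and 1057 CPM, the adult sections 505 and 536, and the aged sections 259 and 261. In the dentate gyrus (DG) the levels were 471 and 474, then 109 and 94.2, then 72.0 and 42.4 CPM. Both subregions had P21 highest and aged lowest with no overlap, and CA1-2 had the same order from 122 and 86.1 through 70.8 and 75.5 to 47.7 and 39.9 CPM. Mest in the DG was at 99.5 CPM in each P21 section, 47.9 and 50.4 in adult and 47.0 and 36.4 in aged sections. No test was made within subregions.

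P21 vs. adult addresses the passage from weaning to maturity. Over whole sections 5 of 10 genes were called higher at P21, against 5.69% of all 18104 genes, and none was called lower (2.37%). The median log2 fold change of the 10 genes was 0.60, and that of all genes 0.00. Dlk1 was at 47.9 and 64.0 CPM in P21 sections and 13.1 and 27.6 in adult ones (1.45 ± 0.25, adjusted p = 0.00198). Magel2 was at 16.5 and 20.6 CPM against 6.15 and 7.63 (1.42 ± 0.15, adjusted p = 6.42e-05). Neither gene overlapped between the ages. Peg10 (1.27 ± 0.17), Nnat (0.76 ± 0.11) and Mest (0.63 ± 0.07) were the other genes called, Mest with a fold change under 1.5 when adult replicate 1 was left out. Plagl1 (0.57), Grb10 (0.52), Ndn (0.43) and Peg3 (0.33) passed the adjusted p with a fold change under 1.5, and Impact alone did not pass it (0.17, adjusted p = 0.0845). The share of spots in the HY was 18.9% and 17.7% at P21 against 12.5% and 12.8% in adults, and its part in the whole-section values was not tested.

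Genes were tested in a region when over 10% of its spots held a UMI at either age compared, so that a gene rare at 1 age could enter only through the age where it was higher. Magel2 in the TH and Dlk1 in the HP and CTX entered in this way, through P21, and are left out of the counts below. Across the 6 regions 11 of 55 tests were then called, all higher at P21 (14 of 58 with them). These repeat the same genes over regions of the same sections, so they are not separate tests. Where a call was made, the share of all genes called higher ran from 2.33% (HY) to 5.61% (HP). The shares of all genes still hold genes that entered through 1 age, so the counts with Magel2 and Dlk1 are the like ones. Those were 5 of 10 in the TH, 3 of 9 in the HP and 2 of 9 in the CTX. In the TH 4 of 9 genes were called, against 4.78% of all genes. Nnat in the TH was at 268 and 265 CPM in P21 sections and 137 and 152 in adult ones, with no overlap (0.91 ± 0.08, adjusted p = 5.99e-05). Dlk1 (1.48), Peg10 (1.26) and Mest (0.75) were called as well, with an adjusted p of 0.0526 for Dlk1 when P21 replicate 1 was left out. Grb10 (0.48) and Ndn (0.39) passed the adjusted p alone, and Impact (0.23), Plagl1 (0.11) and Peg3 (0.07) did not. Magel2 in the TH was at 9.08 and 8.91 CPM against 2.27 and 2.59, with a UMI in 17.7% of P21 and 4.62% of adult spots. Its difference was 1.90 ± 0.23, and 1.91 (adjusted p = 0.00251) with no filter on low counts. Summed neuronal markers in the TH were at 4324 and 4432 CPM against 5550 and 5603 in adults, and oligodendrocyte markers at 28226 and 29680 against 12178 and 12346, and their part was not tested.

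In the HP 2 of 8 genes were called, against 5.61% of all genes, namely Nnat (0.87 ± 0.13) and Mest (0.81 ± 0.10). Peg10 (0.55) passed the adjusted p alone there, and Plagl1 (0.39), Grb10 (0.31), Peg3 (0.18), Ndn (0.06) and Impact (−0.02) did not. Dlk1 in the HP was at 8.23 and 4.58 CPM against 2.06 and 1.68, with a UMI in 13.997% of P21 and 3.03% of adult spots. Its sums were 82 and 20 UMIs in P21 and 13 and 12 in adult sections. Its difference was 1.85 ± 0.37 (edgeR adjusted p = 0.006), and 1.84 (adjusted p = 3.25e-06) with no filter. The second fit used the same counts beside more rare genes, so its smaller adjusted p adds no support. Dlk1 was not called there without adult replicate 2.

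In the CTX 1 of 8 genes was called, Nnat (0.81 ± 0.21), against 3.77% of all genes. Mest (0.53) passed the adjusted p alone, and Plagl1 (0.30), Peg10 (0.22), Ndn (0.13), Peg3 (0.03), Grb10 (−0.07) and Impact (−0.21) did not. Dlk1 differed there by 1.205 ± 0.29 (edgeR adjusted p = 0.00974), with a UMI in 11.3% of P21 and 3.64% of adult spots. Its sums were 127 and 60 UMIs in P21 and 26 and 43 in adult sections. With no filter it differed by 1.198 (adjusted p = 9.83e-05), on the same counts and so without added support. Without adult replicate 1 Dlk1 and Nnat lost the call, at 0.75 and 0.41, and so did both without P21 replicate 2 and Nnat without P21 replicate 1.

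In the STR and FT edgeR called none (4.07% and 10.4% of all genes either way), and DESeq2 called 0 in the STR and 0 in the FT. An unadjusted edgeR p under 0.05 was found for 2 genes in each. Of all genes, 2369 of 11142 in the STR and 4152 of 11390 in the FT had such a p. Differences in the STR ran from −0.13 (Impact) to 0.45 (Peg10), with Mest at 0.40, Ndn at 0.26, Magel2 at 0.17, Nnat at 0.15, Dlk1 at 0.07, Grb10 at 0.04, Peg3 at 0.01 and Plagl1 at −0.03. In the FT Mest (0.36) and Plagl1 (−0.42) passed the adjusted p with a fold change under 1.5. The rest there lay between Impact (−0.12) and Peg10 (0.32), with Magel2 at 0.31, Dlk1 at 0.26, Ndn at 0.19, and Nnat, Peg3 and Grb10 at 0.07.

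In the HY 4 of 10 genes were called higher at P21, against 2.33% of all genes, and none lower (1.99%). Magel2 was at 71.7 and 75.8 CPM in P21, 29.998 and 36.7 in adult and 39.9 and 22.9 in aged sections (P21 vs. adult 1.14 ± 0.23, adjusted p = 0.0209). The P21 sections alone stood apart. Peg10 was at 248.6 and 268 CPM, then 75.4 and 121, then 324 and 149 (1.39 ± 0.33, adjusted p = 0.0395), so that P21 and aged sections all lay above the adult ones. Grb10 was at 189 and 184 CPM against 104 and 136 in adults (0.63 ± 0.14, adjusted p = 0.0279). Mest was at 220 and 211 CPM against 113 and 145 (0.73 ± 0.15, adjusted p = 0.0212). Each of these calls was lost without either P21 replicate, without adult replicate 1 and with no filter on low counts. Those of Magel2 and Peg10 were also lost without adult replicate 2. Log2 fold changes were 0.44 to 1.78 when a section was left out. Fewer of all genes were called higher in each of these settings too, as with 205 of 19300 with no filter, so the loss was not particular to these genes.

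Further genes had HY values in the same direction without a call. Dlk1 was at 215 and 262 CPM in P21, 72.8 and 170 in adult and 233 and 134 in aged sections. Its P21 difference of 0.97 ± 0.36 (adjusted p = 0.139) was 0.47 without adult replicate 1, and was called without adult replicate 2 (1.71) and without either aged replicate (0.96). Nnat was at 1091 and 1325 CPM against 501 and 848 in adults (0.83 ± 0.25, adjusted p = 0.0818). Peg3 was at 975 and 902 against 634 and 762 (0.42 ± 0.11, adjusted p = 0.0586). Neither overlapped. Plagl1 was at 104 and 123 CPM against 53.1 and 76.2 (0.81 ± 0.26, adjusted p = 0.102), and Ndn at 623 and 633 against 431 and 499 (0.43 ± 0.13, adjusted p = 0.0792). Impact differed least, by 0.20 ± 0.10 (adjusted p = 0.24).

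**Figure D3:**
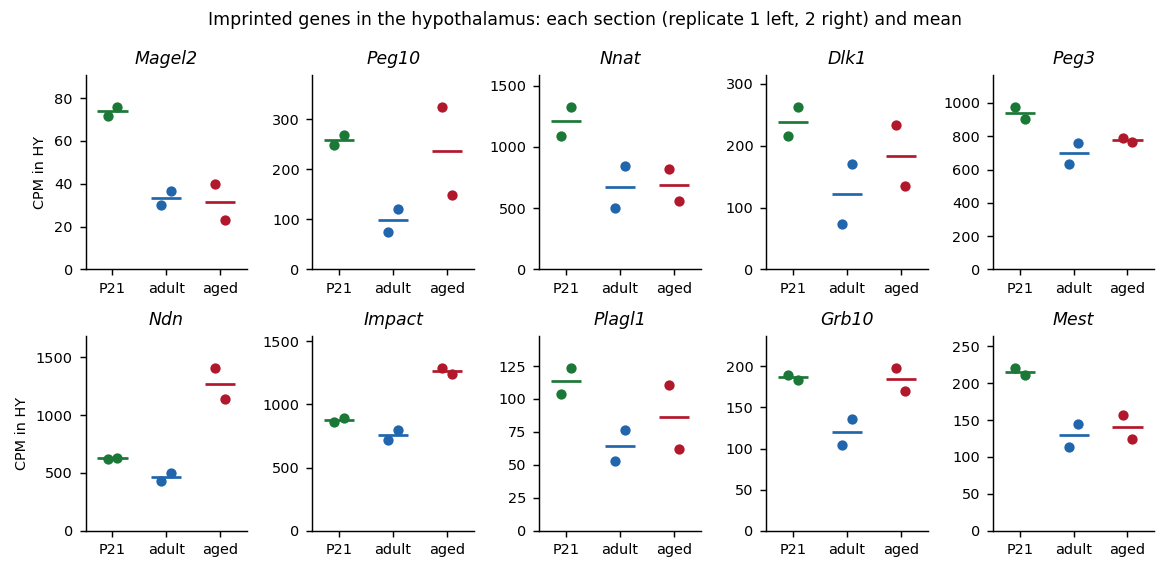
CPM of each imprinted gene in the HY, 1 panel per gene with its own axis from 0, for P21 (green), adult (blue) and aged (red) sections. Points are sections and lines are means of 2. For Magel2 the P21 sections lie above all others (71.7 and 75.8 CPM), and for Ndn (1404 and 1141) and Impact (1285 and 1237) the aged sections do.

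The finer clusters gave unlike results. The cluster led by Dlk1, Pmch and Hcrt held 53.5% and 51.7% of HY spots in P21, 18.9% and 30.5% in adult and 54.9% and 47.7% in aged sections. In it 3 of 10 genes were called higher at P21, Magel2 (1.22 ± 0.27), Mest (0.89 ± 0.16) and Grb10 (0.59 ± 0.12), against 1.15% of all genes. In the Ccdc42 and Baiap3 cluster edgeR called none of the 10 (0.935% of all genes either way), with 1 gene, Mest, at an unadjusted p under 0.05. Of all genes, 1337 of 10801 had such a p there. Magel2 differed there by 0.32 ± 0.19 and Nnat by −0.075 ± 0.13, with Nnat at 640 and 838 CPM in P21 and 791 and 787 in adult sections. The difference between the clusters was not tested.

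Aged vs. adult addresses late life, within the limit of platform given above. Over whole sections 2 of 10 genes were called higher, against 23.8% of all genes, and none was called lower (4.68%). A call was thus common over the whole panel, but that share counts rare genes too. Among the 11338 genes with a UMI in at least 10% of all spots, 421 were called higher and 610 lower. Ndn was at 445 and 444 CPM in aged and 208 and 229 in adult sections (0.92 ± 0.07, adjusted p = 7.24e-06). Peg10 was at 66.0 and 47.8 against 24.3 and 33.8 (0.86 ± 0.17, adjusted p = 0.00133). Neither overlapped. Impact (0.45), Grb10 (0.26), Peg3 (−0.17) and Magel2 (−0.44) passed the adjusted p with a fold change under 1.5, and Dlk1 (0.31), Plagl1 (0.16), Mest (−0.11) and Nnat (−0.26) did not pass it. The median log2 fold change of all genes was 0.04, and 0.15 with library sizes alone, and that of the 10 genes was 0.21.

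In the HY 4 of 10 genes were called higher in aged sections, against 7.19% of all genes, and none lower (4.86%). Ndn was at 1404 and 1141 CPM in aged, 431 and 499 in adult and 623 and 633 in P21 sections (aged vs. adult 1.43 ± 0.13, adjusted p = 0.000353). Impact was at 1285 and 1237 CPM, 715 and 796, and 857 and 889 in that order (0.72 ± 0.10, adjusted p = 0.00154). For both the aged sections lay above all others, and both kept the call in each of the 17 alternatives run. Peg10 (1.24 ± 0.33, adjusted p = 0.0232) and Grb10 (0.59 ± 0.14, adjusted p = 0.0129) were called too, and lost the call without aged replicate 1, adult replicate 1 or either P21 replicate. Peg10 was 0.54 without aged replicate 1 and 1.71 at its highest with a section left out.

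The neighbours Ndn and Magel2 had unlike values in the aged HY, a difference that was not itself tested. Magel2 differed by −0.14 ± 0.24, with an interval of 2 SE from −0.61 to 0.34, and that of Ndn was 1.17 to 1.69. The Magel2 value was −0.59 without aged replicate 1, 0.01 without adult replicate 2 and 0.25 without aged replicate 2. Peg3 (0.13), Mest (0.09) and Nnat (0.01) had intervals that reached from −0.49 to 0.50 at the widest. Those of Dlk1 (0.57, from −0.14 to 1.28) and Plagl1 (0.38, from −0.14 to 0.91) held 0 as well.

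Sections with alike Hcrt levels were set side by side, a choice made after the values were seen. Aged replicate 2 over adult replicate 1, both low in Hcrt, gave CPM ratios of 2.65 for Ndn, 1.97 for Peg10, 1.84 for Dlk1, 1.73 for Impact, 1.63 for Grb10, 1.202 for Peg3, 1.17 for Plagl1, 1.11 for Nnat, 1.09 for Mest and 0.765 for Magel2. Aged replicate 1 over adult replicate 2, both high, gave 2.82, 2.68, 1.37, 1.61, 1.45, 1.03, 1.45, 0.967, 1.08 and 1.09 in the same order. All but Nnat and Magel2 were thus above 1 in both pairs, Peg3 (1.03) and Mest (1.08) by little in the second. The share of all genes above 1 in both pairs was not counted, and each ratio rests on 1 section per age. The pairs were not alike in other marks of plane, with Hdc, an enzyme gene of histamine synthesis, at 57.7 CPM in aged replicate 2 and 2.95 in adult replicate 1, and Avp (vasopressin) at 1886 in aged replicate 1 and 655 in adult replicate 2. In the Ccdc42 and Baiap3 cluster, with 132 to 190 spots per adult or aged section, 5 of 10 genes were called higher in aged sections, Peg10 (1.38), Ndn (1.34), Dlk1 (0.79), Plagl1 (0.77) and Impact (0.65), against 6.69% of all genes. In the Dlk1, Pmch and Hcrt cluster 2 were, Ndn (1.5) and Impact (0.61), against 5.16%.

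**Figure D4:**
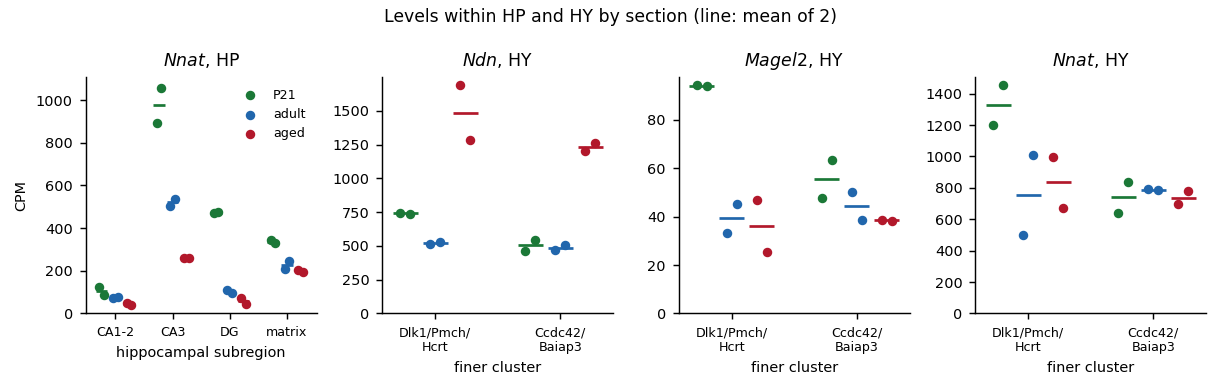
CPM of Nnat in hippocampal subregions and of Ndn, Magel2 and Nnat in the 2 largest finer clusters of the HY, for P21 (green), adult (blue) and aged (red) sections, with points for sections and lines for means of 2. Nnat is highest at P21 and lowest in aged sections in CA3 (894 and 1057 to 259 and 261) and the DG, and Ndn is highest in the aged sections of both HY clusters.

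Outside the HY, Ndn was called higher in aged sections in the STR and CTX. In the STR it was at 507 and 463 CPM against 196 and 250 (1.12 ± 0.11), and with Peg10 (1.06 ± 0.23, not called without adult replicate 1) made 2 of 10 genes against 8.73% of all. Impact (0.50) passed the adjusted p alone there, and Dlk1 (0.41), Grb10 (0.29), Plagl1 (0.17), Nnat (0.13), Peg3 (−0.06), Mest (−0.26) and Magel2 (−0.60) did not. In the CTX it was at 365 and 300 against 167 and 193 (0.87 ± 0.10), 1 of 8 genes tested against 7.09%. Peg10 (0.48) and Impact (0.38) passed the adjusted p alone, and Plagl1 (0.10), Grb10 (0.05), Nnat (−0.02), Peg3 (−0.12) and Mest (−0.14) did not. In the TH Ndn overlapped between the ages, with 185 and 214 CPM against 195 and 177 (0.14 ± 0.09). In the HP edgeR called none (12.7% of all genes either way), with 7 of 8 at an unadjusted p under 0.05, and DESeq2 called 0. Of all genes, 4850 of 11642 had such an unadjusted edgeR p in the HP. Ndn (0.56), Impact (0.33), Peg3 (−0.45), Nnat (−0.47) and Mest (−0.52) passed the adjusted p there with a fold change under 1.5, and Peg10 (0.36), Grb10 (−0.07) and Plagl1 (−0.64) did not pass it.

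Falls with age were called in the TH and FT. In the TH Nnat was at 68.5 and 71.9 CPM against 137 and 152 (−1.0 ± 0.09, adjusted p = 1.76e-05). It was 1 of 8 genes there, against 6.86% of all genes called lower. Impact (0.43), Grb10 (0.45) and Mest (−0.58) passed the adjusted p alone, and Ndn (0.14), Plagl1 (−0.025), Peg3 (−0.03) and Peg10 (−0.16) did not. Dlk1 in the TH passed the filter only through adult sections, with a UMI in 15.8% of adult and 6.19% of aged spots. It is not in that count, which was 2 of 9 with it. It was at 5.26 and 2.90 CPM against 6.82 and 11.8 (−1.17 ± 0.30), with −1.22 (adjusted p = 0.0386) with no filter, and was not called without adult replicate 2 (−0.69).

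In the FT 3 of 9 genes were called lower, Mest (−0.89 ± 0.13), Dlk1 (−0.88 ± 0.30) and Peg3 (−0.81 ± 0.11), against 14.4% of all genes, and Plagl1 higher (0.74 ± 0.12), against 14.7%. Magel2 in the FT passed the filter only through adult sections, with a UMI in 12.2% of adult and 3.65% of aged spots. It is not in these counts, and with it 4 of 10 were called lower. Magel2 sums there were 40 and 51 UMIs in adult and 16 and 13 in aged sections. It differed by −1.48 ± 0.31 (edgeR adjusted p = 0.000537). With no filter it differed by −1.58 (adjusted p = 4.59e-06), on the same counts and so without added support. Ndn (0.37), Nnat (−0.44) and Grb10 (−0.51) passed the adjusted p alone, and Peg10 (0.19) and Impact (0.09) did not. Plagl1 in the FT was at 24.1 and 18.4 CPM in P21, 31.7 and 30.2 in adult and 51.3 and 50.7 in aged sections, with no overlap. Summed markers of neurons in the FT were at 3654 and 3404 CPM in adult and 1884 and 1998 in aged sections, those of microglia were at 404 and 435 against 1125 and 1191, and those of astrocytes at 1669 and 1707 against 3970 and 4132. Their part in the FT results was not tested, and in sums over spots fewer cells of a type and less RNA per cell cannot be told apart. With zones drawn from each section alone, Magel2, Peg3 and Plagl1 lost the call and Dlk1 was 1.16 ± 0.71, and without adult replicate 2 Dlk1 was −0.077.

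**Figure D5:**
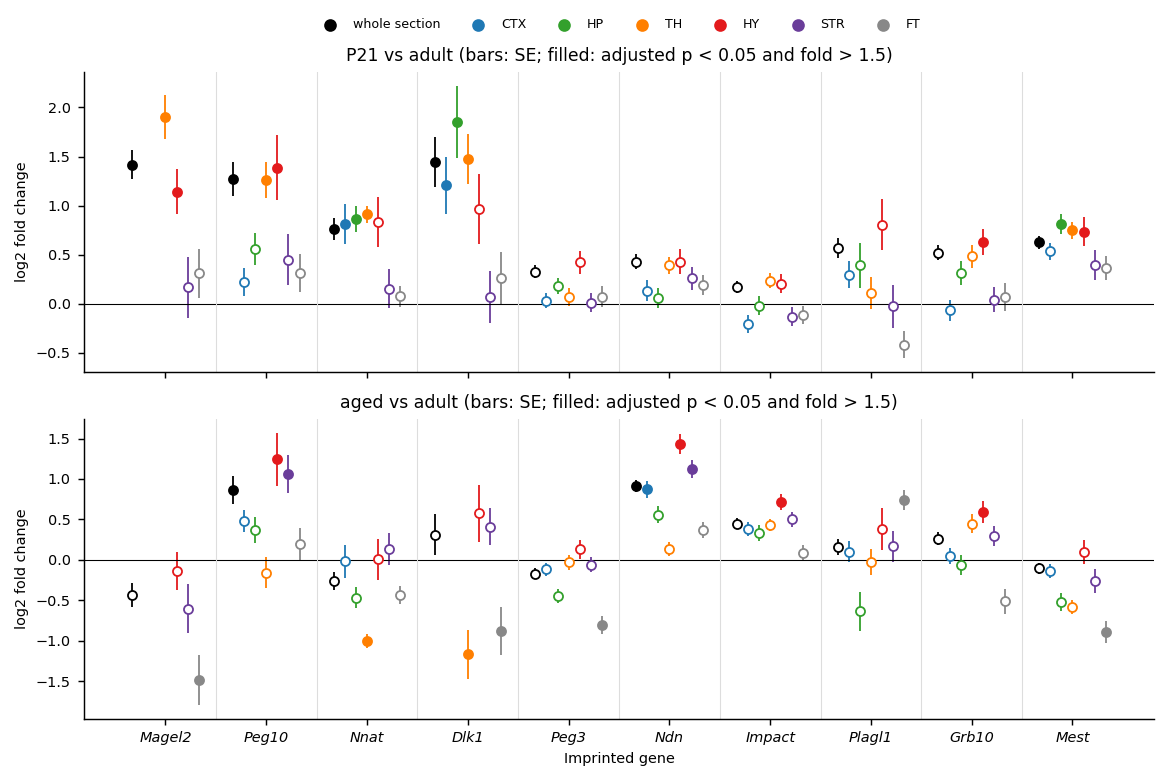
Log2 fold changes of each imprinted gene in P21 vs. adult (top) and aged vs. adult (bottom), for the whole section and 6 regions, with bars of 1 SE. Filled points are called and open points are not, and combinations that were not tested are left out. Magel2 in the TH (top) and FT (bottom) and Dlk1 in the HP and CTX (top) and TH (bottom) passed the filter on low counts through 1 age alone. All filled points of the top panel lie above 0, and in the bottom panel those below 0 are in the TH and FT.

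The joint fit also tested whether a gene's age effect differed between regions, with whatever acts alike on a whole section held by the block. In P21 vs. adult 6 of 10 genes had an adjusted p under 0.05, against 11.6% of all genes, the smallest being that of Impact (0.00522). Without P21 replicate 1 or adult replicate 2 the joint edgeR fit passed none, without adult replicate 1 it passed 1 and without P21 replicate 2 it passed 2. In aged vs. adult 10 of 10 passed, against 45.7% of all genes, with Ndn smallest (1.08e-06), and 6 passed without adult replicate 1.

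A wider list named 59 other imprinted genes of the mouse, 52 of them in the files. In the HY profile 17 of 43 tested were called higher and none lower (8.43% and 6.44% of all genes), with a median of 0.25. The leading genes were Calcr (4.72), the calcitonin receptor gene, Rtl1 (3.76), derived from a retrotransposon, Asb4 (3.60), and Zim1 (2.84), a neighbour of Peg3. Some of these were rare. Rtl1 was at 0.40 to 3.02 CPM over whole sections, with a UMI in 17.1% of P21 and 5.36% of adult HY spots. Calcr had a UMI in 46.2% and 9.20% of these spots. How many of the 43 entered the test through the HY alone was not counted, so the share called higher may partly reflect such entry.

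In P21 vs. adult 7 of 39 tested in the HY were called higher and 1 lower (2.33% and 1.99% of all genes). Calcr and Snrpn had passed the filter through P21 alone, with a UMI in 9.20% and 3.58% of adult spots, and without such genes the counts were 5 and 1 of 36. Asb4 was at 91.2 and 117 CPM in P21 and 4.68 and 21.9 in adult sections (2.97 ± 0.57), and Calcr at 53.2 and 69.5 against 7.80 and 13.7 (2.5 ± 0.43). Snrpn, of the same region as Ndn and Magel2, was at 10.5 and 7.87 CPM against 1.91 and 3.1 (1.88 ± 0.31), and Zdbf2 rose by 0.90 ± 0.20. Gatm, an enzyme gene of creatine synthesis, was at 207 and 220 CPM against 529 and 525 (−1.31 ± 0.10). The 4 with values given did not overlap between the ages, but they were picked among called genes for their large changes. Over whole sections 11 of 52 were called higher and 1 lower (5.69% and 2.37% of all genes), led by Asb4 (3.04), Calcr (3.03), Rtl1 (2.0), Snrpn (1.85) and Mkrn3 (1.58).

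In aged vs. adult 7 of 39 tested in the HY were called higher and 1 lower (7.19% and 4.86% of all genes). Without Snrpn, which passed the filter through aged sections alone, and others that passed through 1 age, 6 of 35 were called higher and none lower. Zim1 was at 57.6 and 43.0 CPM in aged and 10.6 and 21.9 in adult sections (1.60 ± 0.27). Snrpn (1.36), Ddc (0.84), Atp10a (0.71) and Inpp5f (0.64) followed in size. Over whole sections 10 of 52 were called higher, against 23.8% of all genes, and 2 lower (4.68% of all genes). Of genes with a UMI in at least 10% of all spots, 421 of 11338 were called higher. How many of the 52 are in that set was not counted, so the like share for the count of 10 is 23.8%. The calls were led by Phlda2 (3.59), Ascl2 (2.28), Ins2 (1.47), Slc22a18 (1.31) and Rtl1 (1.30). All of these but Rtl1 did not exceed 1.002 CPM in any section.

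The genes with the most similar pattern were found over 48 sums of 6 sections and 8 regions, by Pearson's r of log2(CPM + 1) among genes with a mean over 5 CPM. Sums of 1 section share a library, so r is a description. Baiap3 and Hap1 were in the panel that named the HY, so nearness to them partly restates a high HY level. Dlk1 was nearest to Baiap3 (0.97), AW551984 (0.94) and H2-Q2 (0.92), and Magel2 to AW551984 (0.95), Gpr101 (0.95) and Esyt3 (0.94). Imprinted genes were near each other in some cases. Ndn was nearest to Impact (0.94), then Adcyap1r1 (0.91) and Gprasp2 (0.89), and Impact to Gprasp2 (0.95), Ndn (0.94) and Slc1a6 (0.91). Peg10 was nearest to Zdbf2 (0.92), Hap1 (0.91) and Ngb (0.90), and Peg3 to Gprasp1 (0.94), Araf (0.93) and its neighbour Usp29 (0.92). The rest had partners outside the lists or further away. Nnat was nearest to N4bp2 (0.95), Megf6 (0.84) and Chia1 (0.83), and Plagl1 to Gpx3 (0.85), H13 (0.85) and Mrap2 (0.83). Grb10 was nearest to Wdr6 (0.90), Rtl5 (0.90) and Gaa (0.89), and Mest to Oprk1 (0.84), Fnbp1l (0.84) and Col23a1 (0.80).

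Across the 3472 single HY spots the correlations were weaker, as means over 6 sections. Impact with Nap1l5 (0.43), Peg3 with Nap1l5 (0.41) and Nnat with Baiap3 (0.38) were the highest, Nap1l5 being a further imprinted gene. Hap1, known for vesicle transport in neurons, was among the nearest 3 genes of Magel2, Peg10, Nnat, Plagl1, Grb10 and Mest, at 0.25 to 0.36. Ndn was nearest to Resp18 (0.36) and Dlk1 to Arhgap36 (0.32), Peg10 (0.31) and Asb4 (0.29). Among the 10 genes the closest pair was Peg3 with Impact (0.31, from 0.21 to 0.50 over sections), and the loosest Impact with Mest (0.04, from −0.08 to 0.16). Spots share depth, and low counts hold such values down. Hap1, Baiap3 and Resp18 were in the panel that named the HY.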

How the data were processed

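Per the file headers the authors made the deposited UMI counts per gene and spot with Space Ranger, version 2.0.0 or, for aged sections, 3.1.1 (the labels' notes name 2.1.0 and mm10), and did not normalize them. Moran's I is a deposited score from the same program. Spots under 250 genes or 500 UMIs were dropped. Zones came from 3000 variable genes, 10 principal components and Leiden clustering (leidenalg 0.10.2, resolution 0.4, finer clusters 1.0), named from marker panels. UMIs were summed per section and zone, and sections were the replicates. edgeR 4.0.16 (TMM, filterByExpr, glmQLFTest) fitted age over 6 sums, in regions for genes with a UMI in over 10% of spots at either age, with Benjamini-Hochberg adjustment over all genes tested. The SE is the log2 fold change over the root of F, and printed CPM carry no TMM factor. In simulated data 2-fold changes at P21 were recovered in 75.8% of genes over whole sections and in 74.0% (STR) to 89.5% (CTX) in regions. The joint fit recovered 98.5% for the HY profile but 27.6% for the P21 interaction. Its simulation had 1 fixed spread and no section effect, unlike the data. Alternatives were DESeq2 1.42.0, other filters, scaling and zones, a replicate block and each section left out.

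The text names the 10 genes in every region, the other imprinted genes called with the 5 largest changes, and the 3 genes most like each. The rule uses no measured value, but the genes and lists were chosen with earlier results of these data known. Sections of 1 age differed beyond sampling noise, and 2 per age limit each test. With 2 sections per age a lack of overlap is a low bar, and its share among all genes was not counted. Depth was 42422997 to 106783660 UMIs per section. Barcodes mark grid positions, and 2607 to 2992 were shared between pairs of P21 and adult sections, 3363 between the aged sections and 0 across these sets.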

Additional observations from a re-analysis of the deposited data

Results flagged for a closer look

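The age effect of a gene differed between the 6 regions in 16 of 20 tests by the joint edgeR fit, and each is given with its adjusted p. In P21 vs. adult these were Magel2 (0.00593), Peg10 (0.0234), Nnat (0.0303), Dlk1 (0.00633), Impact (0.00522) and Grb10 (0.0411). Magel2 was 1.14 in the HY and 0.17 in the STR on the log2 scale, and Impact 0.20 in the HY and −0.21 in the CTX. In aged vs. adult they were Magel2 (0.00422), Peg10 (0.00895), Nnat (0.00387), Dlk1 (7.56e-05), Peg3 (4.53e-05), Ndn (1.08e-06), Impact (0.000322), Plagl1 (0.0292), Grb10 (0.000848) and Mest (0.00378). Ndn was 1.43 in the HY and 0.14 in the TH, Peg10 1.24 and −0.16, and Nnat 0.01 and −1.0.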

How the results depend on the processing

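All 10 genes stayed called higher in the HY with library sizes alone, zones from each section alone, inner spots only and each section left out. Calls over regions in P21 vs. adult (14) were 8 to 17 with a section left out, with 8 each without P21 replicate 1, P21 replicate 2 or adult replicate 1. Those in aged vs. adult (14) were 13 to 20. Whole-section calls were 4 to 7 (5) and 2 to 3 (2). The interaction passed 0 to 8 genes in P21 vs. adult (6) and 6 to 10 in aged vs. adult (10). Among the single age values followed through the alternatives, signs turned for Dlk1 in the aged FT with zones from each section alone (1.16). They turned for Magel2 in the aged HY without adult replicate 2 (0.01) or aged replicate 2 (0.25, in a range from −0.59 to 0.25). Nnat at P21 turned in the Ccdc42 and Baiap3 cluster (−0.075). Impact at P21 (−0.080, against 0.202 in the HY) and Nnat in aged sections (−0.088, against 0.006) were also negative in that cluster. The cause was not tested. Of 39 single age values, 18 kept their side of the threshold in each alternative run. The finer clusters and exchanged pairing were chosen after seeing the data. Counts of calls in this section stand without the share of all genes, which moved with the setting as well. Without either P21 replicate, fewer of all genes were called higher at P21 in each of the 6 regions, so a fall was not particular to the 10 genes. In the HY at P21, 262 of 11223 genes were called higher, and 192 with the replicate block. The 14 calls over regions in each comparison include genes that passed the filter through 1 age, and were 11 and 12 without them.

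Same-numbered sections did not deviate together (correlation 0.02 for P21 with adult, −0.04 for P21 with aged, −0.17 for adult with aged). The replicate block gave 11 calls over regions in P21 vs. adult, 13 in the aged comparison, and 5 and 2 over whole sections. With adult numbers exchanged, the aged comparison had 14 and 2. Of all genes in the FT at P21, 691 were called higher and 497 lower, and 546 and 703 with library sizes alone. Magel2 was too rare for a test in the CTX and HP and in the aged TH, and Dlk1 in the aged CTX and HP.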
